A study of Mus musculus with 6 samples.

Results

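miR-124, the classic miRNA of neurons, was followed through both of its mature products, mmu-miR-124-3p and mmu-miR-124-5p (miR-124-3p and miR-124-5p from here on), in small RNA libraries of mouse spinal cord. They were chosen by name, as 2 of the 1482 rows of the count table. Both passed the filter on low counts, which kept 614 rows. By the labels, the 3 SCI-labelled mice had a laminectomy at T10, the thoracic vertebral level of the study, and then a moderate cord contusion by a 10 g weight falling 20 mm. The 3 control-labelled mice had the laminectomy alone. Mice of 20 to 25 g were included, and after surgery they had bladder massage and, for 3 days, antibiotics. Tissue was a piece of cord of about 1 cm centred on T10, collected on day 2. The labels name no strain, sex or age. The design speaks of 3 mice a group, so 1 library per mouse is assumed, and the p-values then measure the spread between mice and libraries together.

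A miRNA hairpin is cut into a short duplex, 1 strand of which is usually loaded into an Argonaute protein and pairs through its seed, bases 2 to 8, with target mRNAs. In miR-124 the 3p strand is the one that is mostly loaded, and the 5p strand is the partner that is mostly degraded. miR-124-3p is known for repressing non-neuronal transcripts in neurons, among them that of the splicing regulator Ptbp1. In GENCODE M21 (GRCm38, also called mm10) the miRNA has 3 hairpin genes. Mir124a-1 (chr14:64590657-64590741, + strand) lies within an exon of the lincRNA Mir124a-1hg. Mir124a-2 (chr3:17795662-17795770, + strand) lies in introns of the 5 transcripts of Mir124-2hg that span it, and an exon of a further transcript of that gene overlaps 27 of its bases. Mir124a-3 (chr2:180894040-180894107, + strand) shares 3 bases with the start of the lincRNA Gm27032. The table has 1 row per arm, so the hairpin a read came from cannot be told apart.

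Sequences are printed for the miRNAs against which miR-124 is read below, from RefSeq on GRCm38.p6, 5′ to 3′, with the seed in capitals. RefSeq held 16 of the 20 other neuron-enriched miRNAs used for comparison. The first 6 are both arms of miR-9, miR-132 and miR-212, neuronal hairpins whose balance of arms is set beside that of miR-124. The last 2 are miR-218-5p of motor neurons and miR-128-3p of neurons in general, abundant members of the same list. miR-132-3p and miR-212-3p share their seed, and the 5p arms of those hairpins do not.
miR-9-5p: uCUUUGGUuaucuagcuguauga
miR-9-3p: aUAAAGCUagauaaccgaaagu
miR-132-5p: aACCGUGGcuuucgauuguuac
miR-132-3p: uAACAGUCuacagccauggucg
miR-212-5p: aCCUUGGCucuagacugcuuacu
miR-212-3p: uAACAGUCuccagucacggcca
miR-218-5p: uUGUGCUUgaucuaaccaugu
miR-128-3p: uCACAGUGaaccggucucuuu

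Total counts were 7100472 to 8889977 in the SCI-labelled and 5568491 to 7360149 in the control-labelled libraries. The labels of the SCI-labelled samples are at odds with injury markers and with the table's own headers. All 7 miRNAs listed as rising in injured tissue were lower in the SCI-labelled libraries by edgeR's quasi-likelihood test, where 23.1% of the 614 rows were lower. miR-21a-5p, widely induced in damaged tissue, averaged 12000 CPM in SCI-labelled and 100100 CPM in control-labelled libraries (log2 -3.06, adjusted p = 7.02e-05). The count columns of the SCI-labelled samples begin with the word Normal. Control-labelled samples have columns beginning with Control, as their label would have it. Whether the labels were exchanged was not tested. Groups are named by their labels throughout, and every direction given here is one between labels, which would turn round if they were exchanged. Control-labelled library 3 stood apart from the other 2 libraries of its group. The summed level of 4 skeletal muscle miRNAs was 9817 to 20420 CPM in the SCI-labelled libraries, against 8283, 11920 and 37770 CPM in control-labelled libraries 1, 2 and 3. The summed level of 4 red cell miRNAs was 2481 to 5231 CPM in the SCI-labelled libraries, against 32720, 26280 and 9426 CPM in control-labelled libraries 1, 2 and 3. Every result is therefore also given without that library where it matters, and the part of muscle or blood in these results was not tested.

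The guide strand, miR-124-3p, was nearly level across the SCI-labelled cords and uneven in the control-labelled ones. It had 6437, 4877 and 7167 counts in SCI-labelled libraries 1, 2 and 3, against 4122, 4007 and 17052 counts in control-labelled libraries 1, 2 and 3. As CPM scaled by TMM, a factor that corrects for library composition, these were 798, 756 and 812 CPM in the SCI-labelled and 660, 725 and 2008 CPM in the control-labelled libraries. Control-labelled library 3 lay above all other libraries, and its other group members lay just below the SCI-labelled ones, so that the groups overlapped. Within a group the highest library was 1.07-fold above the lowest in the SCI-labelled and 3.04-fold in the control-labelled cords.

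miR-124-3p took 0.0687% to 0.0815% of the counts in the SCI-labelled libraries and 0.0625%, 0.0720% and 0.232% in control-labelled libraries 1, 2 and 3. The lowest of these shares has a 95% Wilson interval of 0.0606% to 0.0644%, which covers counting error only. By count it held rank 92 to 98 in the SCI-labelled libraries, and rank 104, 95 and 55 in control-labelled libraries 1, 2 and 3. A miRNA known as one of the most abundant of the brain was thus well down the list in these cord libraries. miR-9-5p, also a neural miRNA, was at 96120 CPM in SCI-labelled and 64270 CPM in control-labelled libraries. Read counts of different miRNAs also carry ligation and amplification preferences, so the order of levels between miRNAs is that of the libraries.

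No difference in miR-124-3p passed the test. The mean was 788.5 ± 29.1 CPM in SCI-labelled and 1131 ± 760 CPM in control-labelled libraries (SD, n = 3 each). The log2 fold change was -0.52 (SE 0.40, edgeR quasi-likelihood adjusted p = 0.339), with a 95% interval of -1.43 to 0.39. Of the 614 rows, 39.4% passed this test. The interval reaches from a large fall to a small rise, so it does not show that the groups are alike. Without control-labelled library 3 the sign turned: the log2 fold change was 0.23 (95% interval -0.15 to 0.60; edgeR adjusted p = 0.291). In bulk cord, fewer neurons and less miRNA per neuron cannot be told apart.

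The partner strand, miR-124-5p, was much rarer and followed another order. It had 951, 508 and 743 counts in SCI-labelled libraries 1, 2 and 3, against 253, 203 and 896 counts in control-labelled libraries 1, 2 and 3. Scaled, it was at 118, 78.8 and 84.2 CPM in the SCI-labelled and at 40.5, 36.8 and 106 CPM in the control-labelled libraries. Control-labelled libraries 1 and 2 were the lowest of the 6, and control-labelled library 3 lay inside the SCI-labelled range.

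Over all libraries miR-124-5p did not pass the test either. Its mean was 93.6 ± 21.2 CPM in SCI-labelled and 60.9 ± 38.7 CPM in control-labelled libraries (SD, n = 3 each). The log2 fold change was 0.62 (SE 0.41, 95% interval -0.31 to 1.54; edgeR adjusted p = 0.266). Without control-labelled library 3 it was 1.32 (SE 0.24, 95% interval 0.80 to 1.84; edgeR adjusted p = 0.000668), a call made where 52.2% of 634 rows were called. Limma voom with quality weights, which gives uneven libraries less weight, called it higher (log2 1.06, adjusted p = 0.0121). That fit called 125 of the 614 rows higher and 161 lower.

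**Figure D1:**
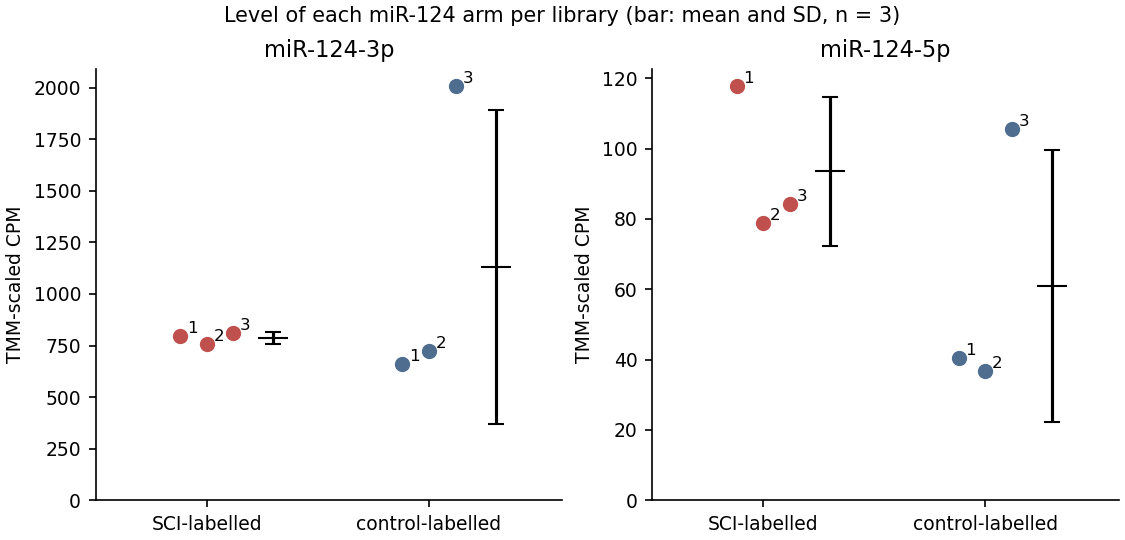
TMM-scaled CPM of miR-124-3p (left) and miR-124-5p (right) in each library, SCI-labelled beside control-labelled, with library numbers at the points and the mean and SD (n = 3) as a bar. Control-labelled library 3 is the highest for miR-124-3p at 2008 CPM, and for miR-124-5p, at 106 CPM, it lies among the SCI-labelled libraries.

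Both arms were raised to a like extent in control-labelled library 3. miR-124-3p was 2.90-fold and miR-124-5p 2.73-fold above the mean of control-labelled libraries 1 and 2. Among the 269 rows with a mean of at least 50 CPM, ranked by their log2 difference between that library and the other 2, miR-124-3p was at rank 8 and miR-124-5p at rank 11. Set against control-labelled libraries 1 and 2 alone, the SCI-labelled mean was 1.14-fold as high for miR-124-3p and 2.42-fold for miR-124-5p. The arms thus shared the rise in control-labelled library 3 and differed in how the SCI-labelled cords stood to the other controls.

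The balance of the arms parted the groups, with control-labelled library 3 on the side of its group. The 5p arm made up 12.9%, 9.43% and 9.39% of miR-124 counts in SCI-labelled libraries 1, 2 and 3, against 5.78%, 4.82% and 4.99% in control-labelled libraries 1, 2 and 3. Counting error alone gave 95% Wilson intervals of 8.77% to 10.1% for the lowest SCI-labelled share and 5.13% to 6.51% for the highest control-labelled share, which say nothing of the spread between mice. Put as 3p reads per 5p read, there were 6.77, 9.60 and 9.65 in the SCI-labelled and 16.3, 19.7 and 19.0 in the control-labelled libraries. Since both arms come from the same library, this share does not depend on how libraries are scaled.

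The mean 5p share was 10.6% ± 2.00 in SCI-labelled and 5.20% ± 0.513 in control-labelled libraries (SD, n = 3 each), a 2.03-fold difference. The gap between the groups, 3.61 percentage points, was wider than the range within either group, 3.48 points in the SCI-labelled and 0.961 in the control-labelled. Parting of the groups was common, since the 5p to 3p ratios did not overlap in 41.3% of 179 hairpins. How many hairpins had a gap wider than their ranges was not counted. An exact two-sided permutation test over libraries gave p = 0.1, the smallest that 3 against 3 allows. Leaving out any library kept the difference between 4.21 and 5.95 points.

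Across all hairpins with both arms kept, the call for miR-124 depended on the test. The log2 ratio of 5p to 3p was higher by 1.14 in the SCI-labelled libraries by edgeR's diffSpliceDGE (edgeR adjusted p = 0.0905 over 179 hairpins), which called 30.2% of them. Without control-labelled library 3 the difference was 1.09 and passed (adjusted p = 0.00144 by edgeR), in a fit that called 38.6% of 184 hairpins. With limma on the log2 ratio within each library, a test added after the data were seen, it was 1.09 (SE 0.28, adjusted p = 0.0307), where 15.1% of hairpins were called. Under limma that call was lost on leaving out control-labelled library 2 (adjusted p = 0.0908) or SCI-labelled library 1 (0.141), 2 (0.0778) or 3 (0.0956). The groups' ratios did not overlap for miR-124, nor for 41.3% of the 179 hairpins. Of the 179, 19 including miR-124 had a shift toward 5p at least as large.

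Some other neuronal hairpins showed a like shift of balance. Of the 20 other neuron-enriched miRNAs, 4 hairpins had both arms kept under 1 name, and the choice to set them beside miR-124 was made after their values were seen. In 3 of these 4 the 5p to 3p ratio was higher in the SCI-labelled libraries and passed diffSpliceDGE, where 16.2% of the 179 hairpins did so in that direction. The log2 difference was 1.04 for miR-9 (edgeR adjusted p = 0.0058), 1.63 for miR-132 (0.00145) and 1.76 for miR-212 (0.001). All 3 held without each library in turn, with the replicate block and with limma on the ratios. miR-132 and miR-212 are made from 1 locus and are induced by neuronal activity, and so do not count as separate cases. miR-137, a miRNA of neuronal maturation, was at -0.10 (adjusted p = 0.958 by edgeR), with a mean of 12.2 counts for its 5p arm. Hairpins of the list whose arms differ in name, among them miR-128, miR-129 and miR-138, were not tested for balance. miR-128-3p had a log2 fold change of 1.46, above its rare 5p rows, miR-128-1-5p (-0.25) and miR-128-2-5p (0.32), the reverse of the shift in miR-124. miR-129-5p (1.26) and miR-138-5p (0.61) lay above their 3p rows (0.72 and 0.26, and -0.46 and -0.07).

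In miR-9, miR-132 and miR-212 the 5p arm had the higher mean count over all libraries, unlike in miR-124, where the 3p arm had it. For miR-132 this held in the SCI-labelled libraries, with a mean log2 ratio of 5p to 3p of 1.53. In the control-labelled libraries its arms were near level (-0.10). The log2 fold changes of 5p and 3p were 0.58 and -0.46 for miR-9. They were 1.53 and -0.09 for miR-132 and 0.86 and -0.91 for miR-212, and the small change of miR-132-3p turned to 0.05 without control-labelled library 3 and to 0.04 with upper quartile scaling. For miR-124 they were 0.62 and -0.52, both short of the test.

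**Figure D2:**
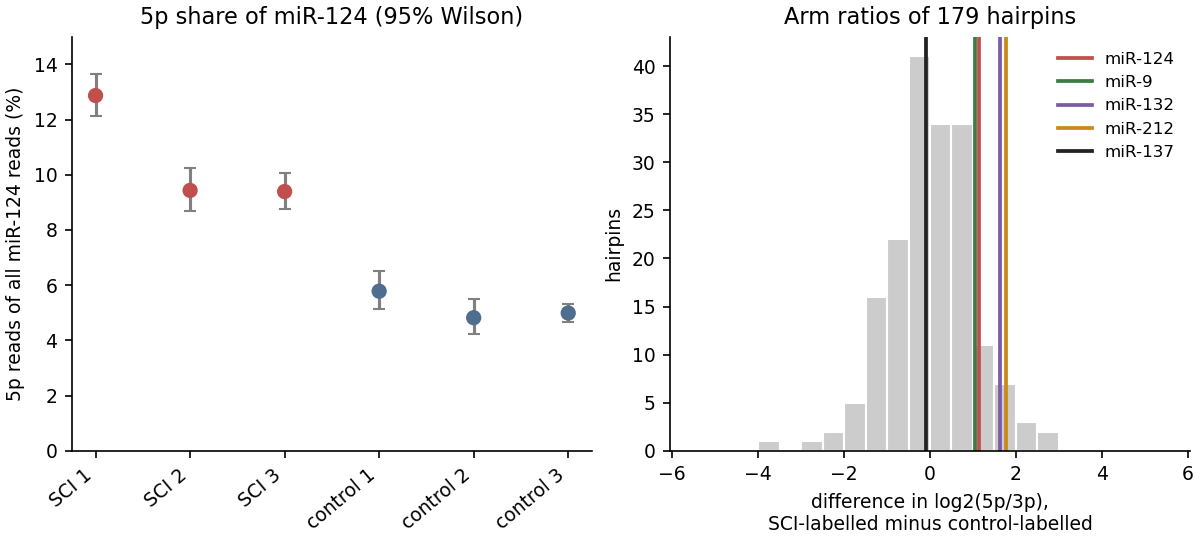
Left, 5p reads as a percentage of all miR-124 reads in each library, with 95% Wilson intervals for counting error. Right, the difference in log2(5p/3p), SCI-labelled minus control-labelled, for 179 hairpins, with miR-124 (1.14) and 4 other neuronal hairpins as vertical lines, of which only miR-137 lies near 0.

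The other neuron-enriched miRNAs moved mostly upward in the SCI-labelled libraries, while miR-124-3p had a negative fold change, as 3 of the list had. All 20 members of the list were tested, 17 had a log2 fold change above 0, 11 were higher and 1 lower past the test, and 8 did not pass. The groups did not overlap for 13 of the 20, nor for 51.3% of all rows. Over all 614 rows, 16.3% were higher and 23.1% lower. The median log2 fold change was 0.74 for the list and -0.07 over all rows. The number of the list that was higher fell to 7 and 6 without SCI-labelled libraries 1 and 3, and was 13 without control-labelled library 3. Over all rows the number that was higher moved likewise, from 100 to 63, 54 and 152 in those fits.

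The most abundant members were miR-9-5p, miR-218-5p, miR-7a-5p, miR-128-3p, miR-9-3p and miR-7b-5p. The motor neuron miRNA miR-218-5p was at 21290, 17410 and 21560 CPM in SCI-labelled libraries 1, 2 and 3, against 9047, 5934 and 7527 CPM in control-labelled libraries 1, 2 and 3. Control-labelled library 3 lay inside its group here (log2 fold change 1.42, edgeR adjusted p = 0.0013). miR-128-3p, which dampens neuronal excitability, was at 12780, 10940 and 12260 CPM in SCI-labelled libraries 1, 2 and 3, against 4462, 4854 and 3733 CPM in control-labelled libraries 1, 2 and 3, the last being the lowest of all (log2 1.46, edgeR adjusted p = 0.000576). Both were higher in every SCI-labelled cord than in every control-labelled one. miR-124-3p was higher in every SCI-labelled cord than in control-labelled libraries 1 and 2, and lower than in library 3.

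The remaining members of the list that were higher ran from 0.58 to 1.53 on the log2 scale. They were miR-9-5p, miR-7b-5p, miR-129-5p, miR-132-5p, miR-383-5p, miR-135a-5p, miR-212-5p, miR-153-3p and miR-135b-5p. On the other side, miR-212-3p was lower (log2 fold change -0.91, edgeR adjusted p = 0.0318), a call lost on leaving out SCI-labelled library 1 (0.0983), 2 (0.101) or 3 (0.114) and with the replicate block (0.058). The calls of miR-9-5p (0.0455), miR-383-5p (0.0413) and miR-135a-5p (0.0437) were close to the threshold of 0.05. Scaling by the library total ended all 3 calls (0.131, 0.1003 and 0.114, in that order, by edgeR), as did limma on log2 TPM with each pseudocount. Leaving out the muscle, red cell and injury miRNAs ended those of miR-9-5p (0.0511) and miR-135a-5p (0.0548). Leaving out any 1 of SCI-labelled libraries 1 to 3 or control-labelled libraries 1 and 2 took away the call of miR-9-5p. Those of miR-383-5p and miR-135a-5p were lost without any SCI-labelled library or control-labelled library 1, that of miR-135a-5p also without control-labelled library 2, and both with the replicate block. miR-153-3p lost its call without SCI-labelled library 1 or 3, and miR-212-5p without SCI-labelled library 3. miR-7a-5p (0.44) and miR-9-3p (-0.46) did not pass.

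**Figure D3:**
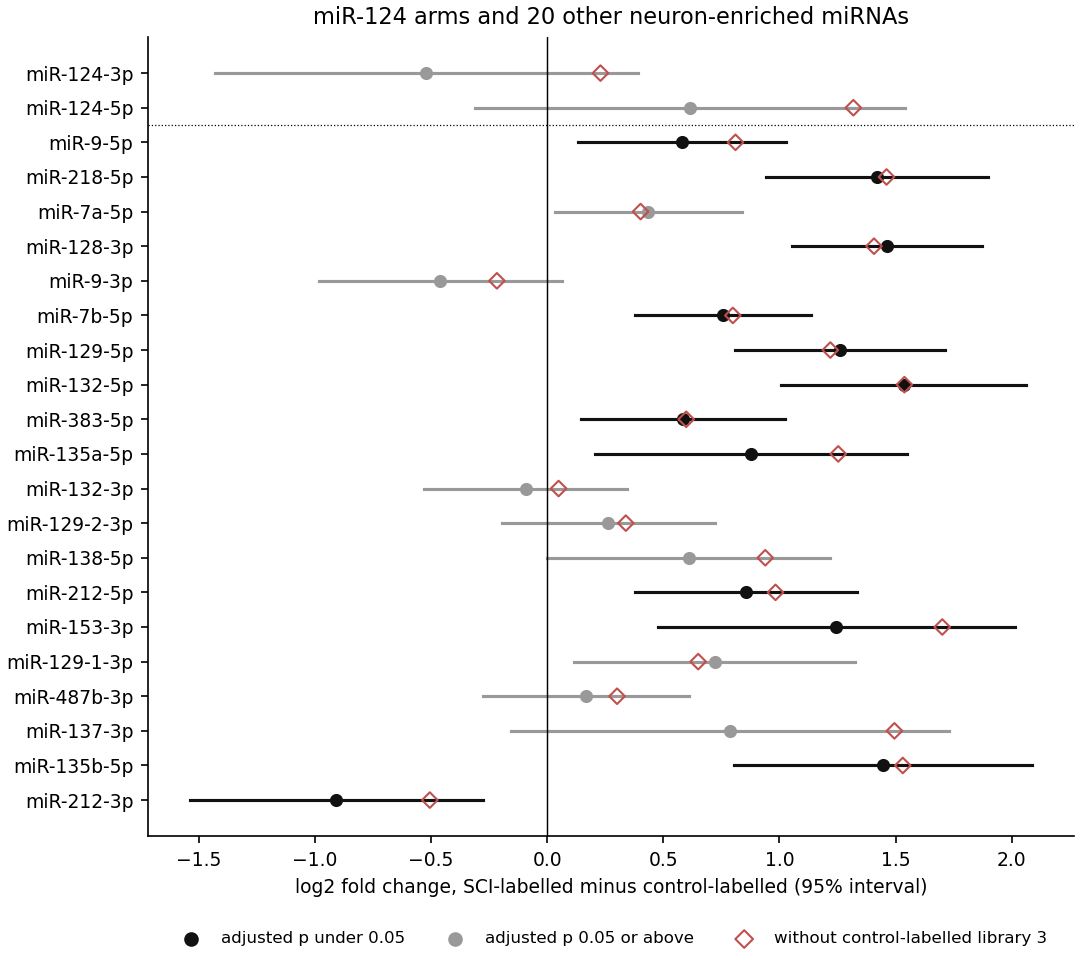
Log2 fold change, SCI-labelled minus control-labelled, with its 95% interval, for both miR-124 arms (top) and 20 other neuron-enriched miRNAs in order of abundance; dark marks pass the test, and red diamonds show the value without control-labelled library 3. miR-124-3p lies at -0.52 and moves to 0.23 without that library, while miR-218-5p and miR-128-3p lie at 1.42 and 1.46, and at 1.46 and 1.41 without it.

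Measured against that list within each library, miR-124-3p lay lower in the SCI-labelled cords, as most rows did. Its log2 CPM minus the mean log2 CPM of the 20 miRNAs was -0.05, 0.01 and 0.10 in SCI-labelled libraries 1, 2 and 3, against 0.48, 0.80 and 1.88 in control-labelled libraries 1, 2 and 3. The groups did not overlap, and 52.7% of the 594 rows outside the list also lay lower without overlap on this measure. The mean was 0.02 ± 0.08 in SCI-labelled and 1.05 ± 0.73 in control-labelled libraries (SD, n = 3 each), a difference of -1.03 (exact two-sided permutation p = 0.1, the smallest possible). The median difference over the 594 rows was -0.73, and 220 of them had a difference at or below that of miR-124-3p, itself included. Without control-labelled library 3 the difference of miR-124-3p was -0.62. The list itself was higher in the SCI-labelled libraries, so a row that did not change reads as lower against it, and nothing particular to miR-124-3p is read from this measure.

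For miR-124-5p the same measure was -2.81, -3.25 and -3.17 in the SCI-labelled libraries and -3.54, -3.50 and -2.37 in the control-labelled ones. Here control-labelled library 3 was the highest of the 6, and the means, -3.07 ± 0.24 in SCI-labelled and -3.14 ± 0.66 in control-labelled libraries (SD, n = 3 each), differed by 0.06 (exact two-sided permutation p = 1). Without control-labelled library 3 the difference was 0.45 and the groups did not overlap (exact two-sided permutation p = 0.1, the smallest that 3 against 2 allows). How many other rows parted the groups in those libraries was not counted, so nothing particular to miR-124-5p is read from it. The level of the list itself was 9.55 to 9.69 in the SCI-labelled and 8.70 to 9.09 in the control-labelled libraries, as mean log2 CPM. The list was lower in each control-labelled library than in each SCI-labelled one. The log2 CPM of miR-124-3p was lower in control-labelled libraries 1 and 2, and higher only in library 3.

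**Figure D4:**
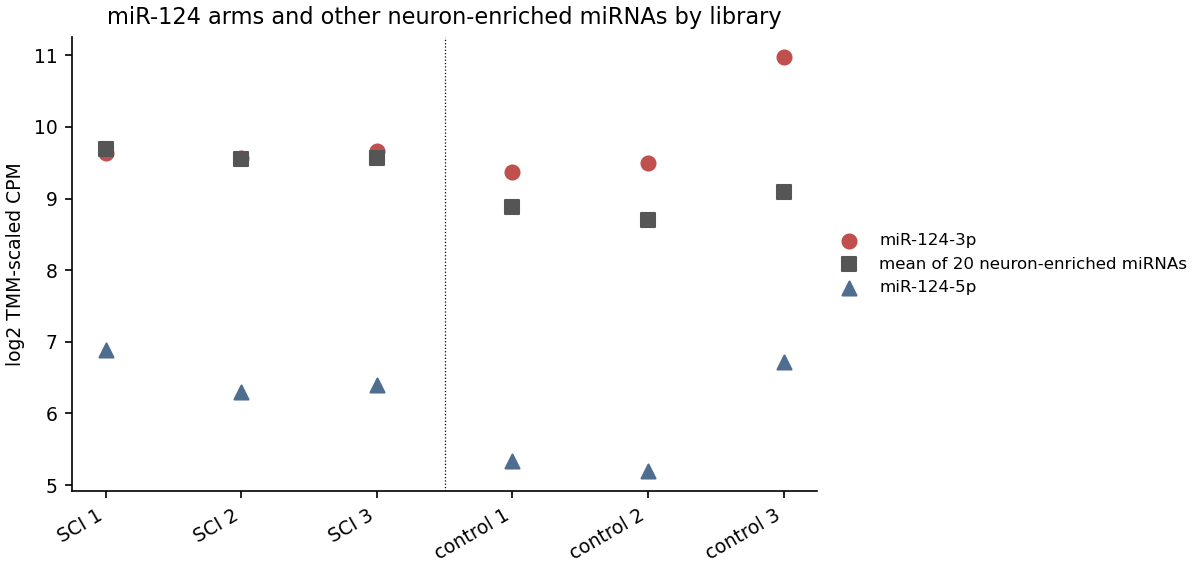
Log2 TMM-scaled CPM of miR-124-3p (circles), the mean of 20 other neuron-enriched miRNAs (squares) and miR-124-5p (triangles) in each library. In the SCI-labelled libraries miR-124-3p falls on the list's mean, and in the control-labelled libraries it lies above it by 0.48 to 1.88.

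The rows most like each arm over the 6 libraries were different ones. Likeness was Pearson's r of log2 CPM among the 269 rows of at least 50 CPM, given as a description, since the points share library composition. For miR-124-3p they were miR-219a-5p of oligodendrocytes (0.96), miR-219b-3p (0.96), miR-708-5p (0.95), miR-133a-3p of skeletal muscle (0.94) and miR-326-3p (0.94). All of these were highest in control-labelled library 3. The oligodendrocyte miRNAs as a list did not share that peak. Their summed level was 11800 to 12570 CPM in the SCI-labelled libraries. It was 11610, 13830 and 10220 CPM in control-labelled libraries 1, 2 and 3, the last being the lowest of all. miR-133a-3p was at 344 to 358 CPM in the SCI-labelled libraries, against 129, 171 and 1581 CPM in control-labelled libraries 1, 2 and 3. Without control-labelled library 3 the r was 0.82, 0.82, -0.21, 0.92 and 0.54, in the same order.

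For miR-124-5p the closest rows were miR-29b-3p (0.99), miR-136-3p (0.98), miR-137-3p (0.98), miR-341-3p (0.98) and miR-3071-5p (0.98). Their r stayed between 0.98 and 0.99 without control-labelled library 3. The closest, miR-29b-3p, is a member of the astrocyte list used below, so the likeness is not one to neuronal rows alone. It was at 611.7, 445.4 and 455.6 CPM in SCI-labelled libraries 1, 2 and 3. In control-labelled libraries 1, 2 and 3 it was at 305.5, 285.7 and 600.3 CPM. miR-137-3p, the member of the neuron list among them, was at 105, 72.9 and 81.9 CPM in SCI-labelled libraries 1, 2 and 3. In control-labelled libraries 1, 2 and 3 it was at 36.8, 26.2 and 86.9 CPM. The arms of miR-124 had an r of 0.53 with each other, and 0.83 without control-labelled library 3.

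Some of these rows repeat each other. miR-219a-5p (one of its copies) and miR-219b-3p lie on opposite strands of chr2:29845689-29845709 (GRCm38.p6), with 21 complementary bases, and their counts differed by 1.16% to 3.01%. miR-136-3p and miR-3071-5p do so on chr12, with a run of 19 complementary bases, and their counts differed by 3.65% to 8.03%. Each pair is taken as 1 signal, since reads from the opposite strands cannot be told apart in the table. The overlap can be read in the pairs, again with seeds in capitals.
miR-219a-5p: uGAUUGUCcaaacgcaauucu
miR-219b-3p: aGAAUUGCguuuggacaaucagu
miR-136-3p: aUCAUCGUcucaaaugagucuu
miR-3071-5p: aCUCAUUUgagacgaugaugga

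**Figure D5:**
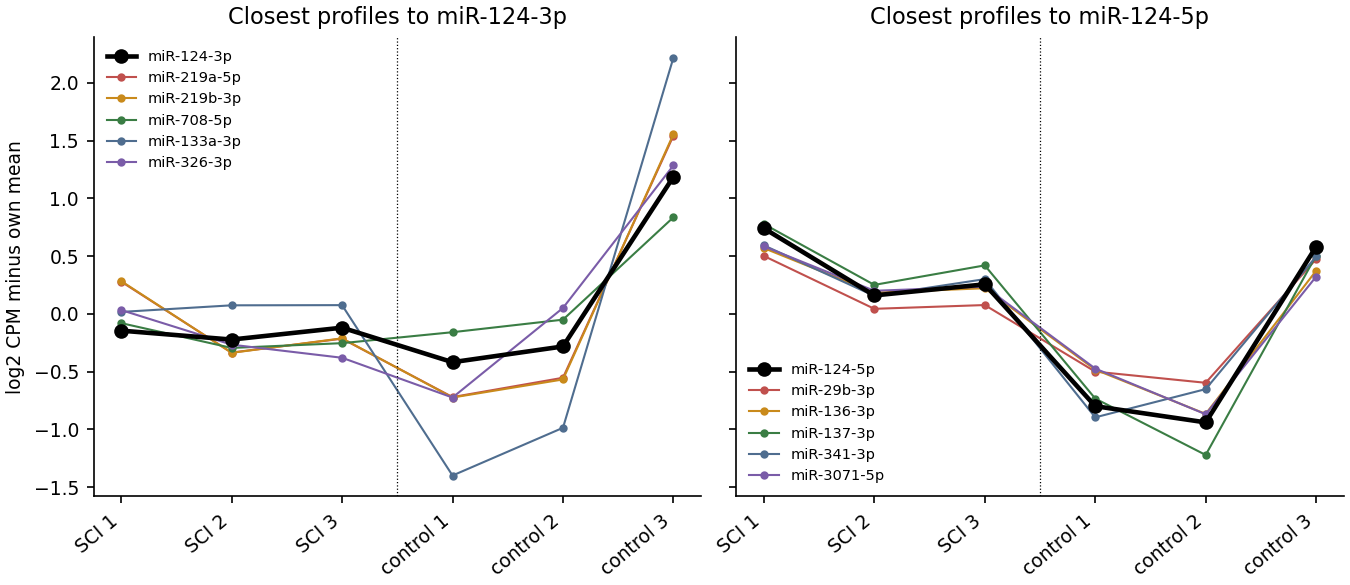
Log2 CPM minus its own mean over the 6 libraries for miR-124-3p (left, black) and miR-124-5p (right, black), each with the 5 rows of highest Pearson r. The profiles on the left share a peak in control-labelled library 3, and those on the right share low values in control-labelled libraries 1 and 2.

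Lists of other cell types were read against the 39.4% of all 614 rows that passed the test and the 23.1% that were lower. The 5 oligodendrocyte, 3 astrocyte and 2 endothelial miRNAs had 0 of 10 members past edgeR's adjusted threshold and 0 at an unadjusted p under 0.05, the smallest adjusted p being 0.263. The most abundant oligodendrocyte member, miR-219a-2-3p, was at 8757 to 9811 CPM in the SCI-labelled libraries. It was at 9008, 10270 and 7013 CPM in control-labelled libraries 1, 2 and 3. The summed level of 6 leukocyte miRNAs was 723 to 739 CPM in the SCI-labelled and 2135 to 3329 CPM in the control-labelled libraries, with 5 lower and 1 not past the test. All 4 tested red cell miRNAs were lower. Leukocyte and red cell levels thus moved with the labels too, and their part in the miR-124 values was not tested.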

How the data were processed

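The authors deposited 1 table of whole-number read counts per mature miRNA and a column named TPM, which equals CPM computed from the deposited counts. Bowtie and mm10 are named in the submitters' processing notes. Small RNA libraries were made from 3 µg of total RNA with a NEBNext kit, per the labels' protocols. The aligner settings, the miRBase release and the handling of reads that match several rows are not stated in the labels. Columns were matched to samples through their descriptions.

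Counts were tested in R 4.3.3 with edgeR 4.0.16: filterByExpr (minimum count 10), TMM scaling, robust quasi-likelihood F test on group, Benjamini-Hochberg over 614 rows at 0.05. The filter kept 99.98% or more of the counts of each library. Arm usage was tested with diffSpliceDGE over 179 hairpins. Levels are TMM-scaled CPM; standard errors were taken as |log2 fold change| / √F; log2 CPM used a prior count of 0.5. Alternatives used DESeq2 1.42.0 and limma 3.58.1. Replicates all differed by more than sampling noise (chi-square per degree of freedom 190 or more).

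On data simulated for this comparison, with 200 rows changed among 603 kept, the test recovered 60.2% of 2-fold and 96.2% of 4-fold changes, and 3.68% of its calls were unchanged rows. Of 4-fold arm shifts among 176 hairpins, 93.3% were recovered, and 6.67% of the arm calls were hairpins without a shift. Smaller arm shifts, such as that of miR-124, were not simulated.

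The members and lists were chosen with earlier results of these data known. Named miRNAs are both arms, the 6 most abundant and all called members of the neuron list, the 5 rows most like each arm, and the leading members of the other lists; others were chosen after their values were seen.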

Additional observations from a re-analysis of the deposited data

How the results depend on the processing

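miR-124-3p had an adjusted p above the threshold under all alternatives run. Its log2 fold change was -0.52, turned to 0.0069 with limma voom (adjusted p = 0.983), and ran from -0.77 to 0.23 over leave-one-out fits, positive only without control-labelled library 3 (0.29). miR-124-5p stayed positive, from 0.34 to 1.32 over leave-one-out fits, and passed with limma voom (1.06, 0.0121) and without control-labelled library 3. The arm ratio stayed higher, from 0.95 to 1.23 over leave-one-out fits by edgeR and from 0.93 to 1.18 by limma on the ratios (1.09 with all libraries), while its call came and went as stated. The 5p share difference ran from 4.21 to 5.95 points, and was 5.36 with 1 count added to each arm. The level relative to the neuron list ran from -1.32 to -0.62, was -1.02 with the summed list and -0.93 with miR-9-5p alone.

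Rows that were higher numbered 54 to 152 and rows that were lower 87 to 179 over leave-one-out fits, against 100 and 142. By the upper quartile they numbered 120 and 120, and by the library total 75 and 144. Neuron-list miRNAs that were higher numbered 6 to 13 and those that were lower 0 to 1; the count of lower ones was 0 with limma on log2(TPM + 1), 0.1 or 10 added, and with the replicate block. Of 272 alternative values of named neuron-list miRNAs, 2 turned in sign, both miR-132-3p (0.036 by the upper quartile, and -0.22 to 0.049 over leave-one-out fits). A call was lost in 42 and gained in 4. Among the losses were miR-383-5p without the filter (edgeR adjusted p = 0.0643) and miR-153-3p with limma on log2(TPM + 10) (0.0627). miR-137-3p gained its call without control-labelled library 3 (edgeR adjusted p = 0.000394), without the filter (0.0416) and with limma voom (0.0052). miR-7a-5p did with limma on log2(TPM + 10) (0.0389). The arm ratio of miR-137 turned without SCI-labelled library 1 (0.13) or control-labelled libraries 1 (0.38) or 2 (0.14), within -0.96 to 0.38 over leave-one-out fits, and the likeness of miR-708-5p to miR-124-3p ran from -0.21 (without control-labelled library 3) to 0.97. The cause was not tested.

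The replicate numbers of the labels did not pair the libraries: the deviations of same-numbered libraries correlated at -0.23, 0.13 and -0.16. The count columns of the control-labelled libraries carry numbers other than their replicate numbers. The replicate block therefore rests on the labels' numbering alone. With the replicate block miR-124-3p stood at -0.32 (adjusted p = 0.507), miR-124-5p at 0.77 (0.146) and the arm ratio at 1.09 (0.09), all by edgeR; the level relative to the neuron list was -1.03 with a smallest possible p of 0.25. With the block 78 rows were higher, 112 lower and 9 neuron-list miRNAs higher. With 3 libraries a group, an exact test cannot fall under 0.1.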
